A study of Drosophila melanogaster with 9 samples.

Results

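The Turandot peptides (TotA, TotB, TotC, TotF, TotM, TotX and TotZ), the JAK-STAT target Socs36E and the cytokine gene upd3 were followed by RNA sequencing. The samples were labelled as heads and came from 3 genotypes of Drosophila melanogaster. The 9 members were taken by gene symbol from the 16837 genes listed, and all 9 were present. Per the labels, heads came from virgin females snap frozen at 10 days of age, with 3 libraries per genotype. The groups were Chd1[WT/WT], labelled wildtype, here called wild type; Chd1[-/-], labelled Chd1-deficient; and elav-Gal4>UAS-Chd1, labelled Chd1-rescued, here called elav>Chd1. The elav-Gal4 driver is active in neurons, and the labels do not state outright that these flies carry the deletion or how many heads entered a library. The series text names a rescued genotype apart from elav-Gal4>UAS-Chd1 and no wild type, and which Chd1 alleles the wild-type group carries was not settled here.

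Turandot genes encode small secreted peptides that the fat body releases into the hemolymph under heat, mechanical, bacterial and other stress. In the JAK-STAT pathway, the cytokines upd1, upd2 and upd3 bind the receptor dome, the kinase hop phosphorylates Stat92E, and Stat92E enters the nucleus. Socs36E is induced by the pathway and dampens it, and upd3 released by gut cells or hemocytes is known to raise TotA in the fat body together with the Relish and Mekk1 routes.

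Levels are TPM, transcript abundance corrected for transcript length and scaled to a fixed library total, so levels of different genes may be set side by side, and the read depth is unknown. Libraries summed to 999685 to 999850 TPM over the genes listed. Chd1 itself stood at 92.7 to 108 TPM in wild type, 18.2 to 20.2 TPM in Chd1-deficient, then 63.1 to 63.7 TPM in elav>Chd1 libraries. The 6 photoreceptor markers summed to 964 to 1023, 3947 to 4048 and 1625 to 1672 TPM in the same order. Although the label is head, the 8 ovary markers summed to 10242 to 11256, 10735 to 11344 and 12544 to 13153 TPM. Most of that sum was Vm26Aa, with means of 6243, 8708 and 7371 TPM, a gene named after its values were seen. Vm26Aa was higher in Chd1-deficient than in wild type, whereas 6 of the 8 markers were lower there. The 9 gut markers summed to 2030 to 2375, 3906 to 4068 and 3558 to 3594 TPM. The levels below may thus include RNA from outside the head, which was not tested. The 7 genes of the male reproductive tract, all detected in samples labelled female, summed to 59.7 to 65.0, 347.9 to 391 and 16.0 to 19.1 TPM. In such mixed RNA, fewer cells of a type and less RNA per cell cannot be told apart. No label states whether same-genotype libraries were made from different batches of flies, and the p-values thus reflect only how these libraries vary, perhaps for technical reasons.

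Of the 7 Turandot genes, TotA, TotC, TotM and TotX carried nearly all of the signal. TotA, TotC, TotB and TotZ lie in this order on the same strand within 7328 bases of chromosome arm 3R (20871036 to 20878363, dm6), and TotX lies further along on the opposite strand, from 20904917 to 20905518. TotX sits in an intron of Grik, a kainate-type glutamate receptor gene read from the other strand, without exon overlap. On arm 2L, TotM (5329857 to 5330464) stands alone, and TotF (19911815 to 19912377) lies in an intron of sick next to TotE, which the files list as Victoria. Socs36E is also on 2L (18138675 to 18152417) and upd3 on the X chromosome (18277233 to 18284596). Turandot transcripts were short, at 506 to 602 bases, against 3503 bases for Socs36E and 2221 bases for upd3. The 4 genes at the start of the 3R cluster are paralogs, and no source used here states how the authors' counting divided reads among similar copies.

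TotF was listed at 0 in all 9 libraries. TotZ was listed at 0 in 8 libraries and at 0.0989 TPM in wild-type library 3. TotE, the neighbour of TotF, did not exceed 0.121 TPM in any library. These genes and upd3 failed the filter of at least 1 TPM in at least 3 libraries, so 6 of the 9 members were tested, and TotB passed only through the 3 Chd1-deficient libraries.

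**Figure D1:**
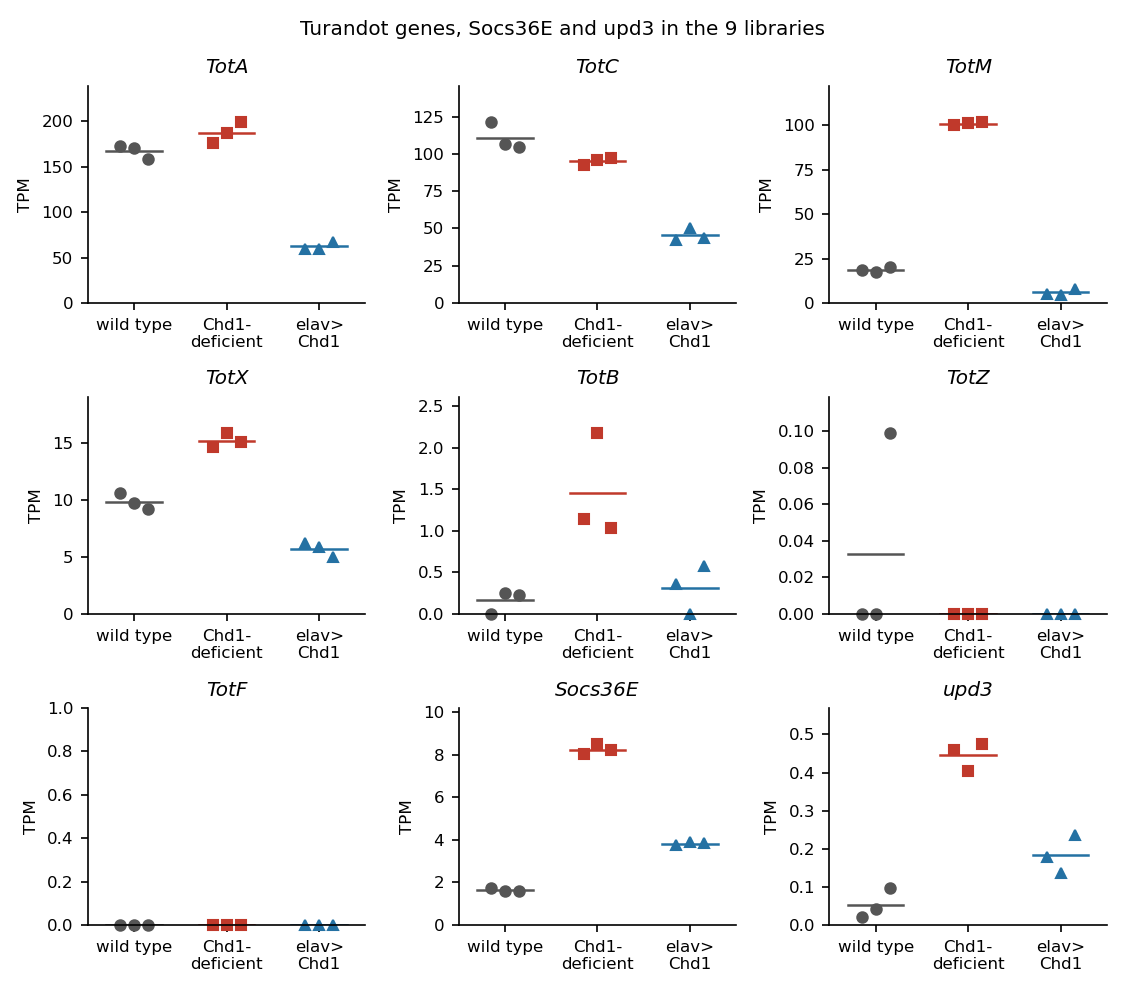
TPM of each member (vertical axes, linear and starting at 0) in the 3 libraries per genotype (points), with the group mean (line). TotA, TotC, TotM and TotX were lowest in elav>Chd1, whereas Socs36E and upd3 were lowest in wild type, and TotF was listed at 0 throughout.

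TotA, the founding member of the family, was the most abundant Turandot transcript. Wild-type libraries held 173, 171 and 158 TPM, Chd1-deficient libraries 176, 187 and 199 TPM, and elav>Chd1 libraries 59.8, 59.3 and 67.5 TPM. The last 3 lay far below the other 6, and the wild-type and Chd1-deficient groups nearly touched without overlapping. By abundance TotA ranked 750 to 829 among all genes in Chd1-deficient, 929 to 977 in wild-type and 2330 to 2705 in elav>Chd1 libraries.

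TotC, a neighbour of TotA, stood at 121, 106 and 104 TPM in wild type, at 92.2, 95.8 and 97.3 TPM in Chd1-deficient, then at 42.4, 50.2 and 43.5 TPM in elav>Chd1. It was thus highest in wild type, unlike TotA, and again lowest in elav>Chd1, and the 3 groups did not overlap. TotX stood at 10.6, 9.72 and 9.20 TPM in wild type, at 14.6, 15.8 and 15.0 TPM in Chd1-deficient, then at 6.24, 5.89 and 4.95 TPM in elav>Chd1. Its 3 groups were separated too, in the order elav>Chd1, wild type, Chd1-deficient. The intron host Grik did not follow TotX: it stood at 0.707 ± 0.040, 3.06 ± 0.53 and 2.82 ± 0.40 TPM (mean ± SD, n = 3) in wild type, Chd1-deficient and elav>Chd1, whereas TotX was lower in elav>Chd1 than in wild type.

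TotM, which stands alone on 2L, ranged from 4.78 to 102 TPM. It stood at 18.5, 17.5 and 20.4 TPM in wild type, at 99.8, 101 and 102 TPM in Chd1-deficient, then at 5.24, 4.78 and 7.88 TPM in elav>Chd1. The order of the groups was that of TotX, with wider gaps. TotB was scarce, at 0, 0.256 and 0.234 TPM in wild type, 1.148, 2.17 and 1.04 TPM in Chd1-deficient, then 0.355, 0 and 0.582 TPM in elav>Chd1. Its wild-type and elav>Chd1 libraries overlapped, and the Chd1-deficient libraries lay above both. The authors' deposited tables give a mean normalized count of 6.79 per library for TotB, against 1011 for TotA, 445.3 for TotC, 224.3 for TotM and 102.5 for TotX, so TotB rests on few reads.

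Summed over the 7 genes, Turandot transcripts reached 293 to 323 TPM in wild type, 383 to 414 TPM in Chd1-deficient, then 114 to 124 TPM in elav>Chd1. TotA and TotC together made up 89.8% to 91.0% of that sum in wild type and 89.2% to 91.1% in elav>Chd1, but 69.9% to 71.6% in Chd1-deficient. TotM supplied 5.73% to 6.98%, 3.97% to 6.33% and 24.6% to 26.0% in the order wild type, elav>Chd1, Chd1-deficient. Ratios within a library do not depend on its scaling. The ratio of TotM to TotA was 0.103 to 0.129 in wild type and 0.0805 to 0.117 in elav>Chd1, which overlapped, and 0.511 to 0.569 in Chd1-deficient. The ratio of TotC to TotA was 0.622 to 0.700 and 0.644 to 0.846 in the former groups, again overlapping, and 0.489 to 0.525 in Chd1-deficient.

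**Figure D2:**
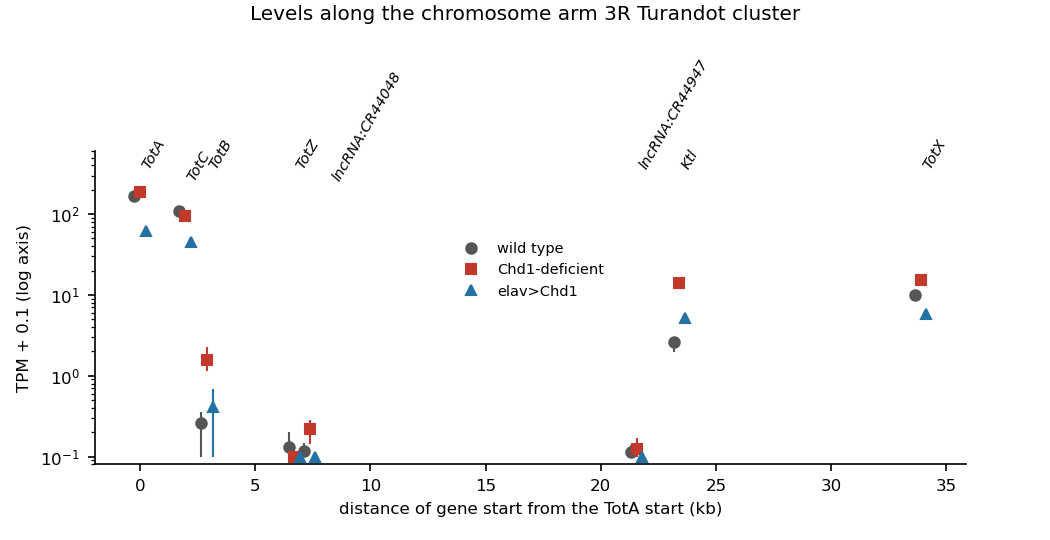
Level of the genes along the 3R Turandot cluster, as TPM + 0.1 on a log axis, against the distance of their start from the TotA start in kb (points, group means of 3 libraries; vertical lines, lowest to highest library). TotA and TotC were abundant, and TotB and TotZ directly beside them were near 0; Ktl, which lies between TotZ and TotX, was lowest in wild type, while TotX was lowest in elav>Chd1.

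Among listed genes lying wholly between TotZ and TotX, Ktl was the one above 1 TPM. There lncRNA:CR44048 and lncRNA:CR44947 did not exceed 0.185 and 0.0716 TPM. Grik, which spans TotX, is given above. Ktl stood at 2.48 ± 0.53 TPM in wild type, 14.0 ± 1.3 TPM in Chd1-deficient, then 5.05 ± 0.50 TPM in elav>Chd1 (SD, n = 3). Ktl rose from wild type to elav>Chd1 by a log2 fold change of 0.91 (limma adjusted p = 0.00015), whereas TotC and TotX of the same cluster fell.

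Socs36E, which encodes a suppressor of cytokine signalling, was a low transcript with tight groups. It stood at 1.74, 1.61 and 1.61 TPM in wild type, at 8.02, 8.50 and 8.23 TPM in Chd1-deficient, then at 3.75, 3.91 and 3.84 TPM in elav>Chd1. The groups did not overlap, and the order was wild type, elav>Chd1, Chd1-deficient. The cytokine gene upd3 stood at 0.0219, 0.0432 and 0.0959 TPM in wild type, at 0.459, 0.403 and 0.475 TPM in Chd1-deficient, then at 0.179, 0.138 and 0.236 TPM in elav>Chd1. Its groups had the same order as those of Socs36E and did not overlap, at a level under 1 TPM and a mean normalized count of 12.9 per library in the authors' deposited tables. For upd3 an exact two-sided permutation test gave p = 0.1 in each of the 3 comparisons, the smallest p that 3 against 3 libraries allow.

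Chd1-deficient was first set against wild type, to see which members differ where Chd1 is deleted. TotM and Socs36E were several-fold higher in Chd1-deficient, TotX moderately so, and TotA and TotC moved little and in opposite directions. In a limma fit of log2(TPM + 0.5) over all genes, TotM rose by 2.39 (SE 0.14, adjusted p = 8.1e-08), from 18.8 ± 1.5 to 101 ± 0.95 TPM. Socs36E rose by 2.02 (SE 0.07, limma adjusted p = 2.9e-09), from a mean of 1.66 ± 0.07 to 8.25 ± 0.24 TPM. TotX rose by 0.60 (SE 0.09, limma adjusted p = 7.6e-05). TotB entered the fit only because its Chd1-deficient libraries reached 1 TPM, so its difference is given as a description, with means of 1.45 ± 0.63 against 0.163 ± 0.142 TPM and a log2 fold change of 1.54 that became 2.69 and 1.05 with pseudocounts of 0.1 and 1. The authors' deposited table gives log2 fold changes of 2.499 for TotM, 2.40 for Socs36E, 3.203 for TotB and 3.09 for upd3, each above its value on the log2(TPM + 0.5) scale (0.77 for upd3 without a filter), and does not list TotA, TotC or TotX.

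TotA rose in log2 terms by 0.16 (SE 0.06, 95% interval 0.02 to 0.30, limma adjusted p = 0.032), from 167 ± 8 to 187 ± 12 TPM. TotC fell by 0.21 (SE 0.07, limma adjusted p = 0.015), from 111 ± 9 to 95.1 ± 2.6 TPM. The TotA call was lost without wild-type library 3 (limma adjusted p = 0.1) or without Chd1-deficient library 2 (0.066) or 3 (0.13). The TotC call was lost without wild-type library 1 (limma adjusted p = 0.061) or Chd1-deficient library 1 (0.052). Leaving TotB aside, 5 of the 5 tested members were called, 4 higher and 1 lower, in a comparison where 88.9% of all 11094 tested genes were called (42.9% higher, 46.0% lower), so the count is near the background. Libraries of the 2 groups did not overlap for these 5 members, as for 88.3% of all genes (42.8% higher, 45.5% lower). The median log2 fold change of these 5 was 0.60, against -0.05 for all genes. Where a log2 fold change beyond 1 in either direction was also required, TotM and Socs36E of the 5 were called.

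**Figure D3:**
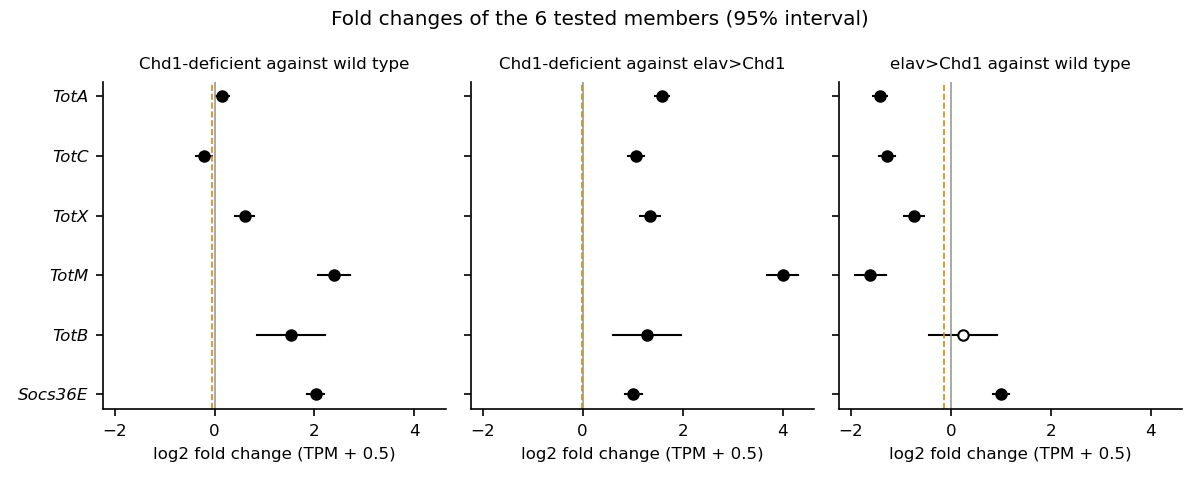
Fold changes of the 6 members in the fit (TotB entered it only through its Chd1-deficient libraries) on the log2(TPM + 0.5) scale (horizontal axis) with 95% intervals, in the 3 comparisons; filled points passed a limma adjusted p of 0.05, and the dashed line is the median of all genes. Against wild type, TotA, TotC, TotX and TotM lay below 0 in elav>Chd1 and Socs36E above it, and TotM had the largest change in each panel.

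Next, Chd1-deficient was set against elav>Chd1, in which Chd1 is expressed under the neuronal driver. The 5 tested members other than TotB were all called higher in Chd1-deficient, where 68.4% of all genes were called (34.7% higher, 33.7% lower). None of the 5 overlapped between the groups, as held for 77.1% of all genes (37.5% higher, 39.6% lower). TotM was 4.001 higher in log2 terms (SE 0.14, limma adjusted p = 3.9e-09), at 101 ± 0.95 against 5.96 ± 1.68 TPM. TotA was higher by 1.58 (SE 0.06, limma adjusted p = 8.3e-09), TotX by 1.34 (SE 0.09, adjusted p = 3.9e-07) and TotC by 1.06 (SE 0.07, adjusted p = 4.2e-07). Socs36E was higher by 1.01 (SE 0.07, limma adjusted p = 7.8e-07). TotB, which the filter admitted through its Chd1-deficient libraries alone, had a log2 fold change of 1.29, or 2.23 and 0.90 with pseudocounts of 0.1 and 1. The median was 1.34 for the 5 members and -0.02 for all genes. In the authors' deposited table, TotM, TotA, TotX and TotC have log2 fold changes of 4.09, 1.60, 1.43 and 1.08, upd3 and Socs36E of 1.29 and 1.122, and TotB of 2.22. Each is above its value on the log2(TPM + 0.5) scale (0.47 for upd3 without a filter).

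The comparison of elav>Chd1 with wild-type libraries parted the Turandot genes from Socs36E. In log2 terms TotA fell by 1.42 (SE 0.06, limma adjusted p = 3.4e-08), from 167 ± 8 to 62.2 ± 4.6 TPM, and TotM by 1.61 (SE 0.14, adjusted p = 5.1e-06), from 18.8 ± 1.5 to 5.96 ± 1.68 TPM. TotC fell by 1.28 (SE 0.07, limma adjusted p = 2e-07) and TotX by 0.74 (SE 0.09, adjusted p = 3.6e-05). Socs36E rose by 1.01 (SE 0.07, limma adjusted p = 1.5e-06), from 1.66 ± 0.07 to 3.83 ± 0.08 TPM. The 95% intervals were -1.56 to -1.29 for TotA and 0.84 to 1.17 for Socs36E. TotB was not called, with a log2 fold change of 0.25 (95% interval -0.43 to 0.92, limma adjusted p = 0.47). Apart from TotB, all 5 tested members were called, 4 lower and 1 higher, where 77.9% of all genes were called (30.6% higher, 47.3% lower). The same 5 did not overlap between the groups, as held for 78.3% of all genes (30.7% higher, 47.6% lower). The median of the 5 was -1.28 and that of all genes -0.15. All 3 comparisons share libraries with one another, so their values for a gene are not independent.

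Within each library, Socs36E amounted to 0.00943 to 0.0102 of the TotA level in wild type, 0.0414 to 0.0457 in Chd1-deficient and 0.0569 to 0.0659 in elav>Chd1. Both changed groups lay above wild type, and the ratio was highest in elav>Chd1, where TotA was lowest.

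Among other JAK-STAT genes, dome, hop and Stat92E were lower in Chd1-deficient than in wild type, and Diedel, chinmo, Tep2 and Listericin were higher. Of 30 genes of the pathway and its targets, 27 were tested and 25 called, 8 higher and 17 lower (median log2 fold change -0.29), near the 88.9% of all genes called. Socs16D and Cdk4 were the ones not called, and the listed targets zfh1, stg, apt and crb were called lower. The receptor gene dome fell from 40.5 ± 2.2 to 27.1 ± 1.2 TPM, a log2 fold change of -0.57 (limma adjusted p = 2.2e-06), and the kinase gene hop from 39.8 ± 3.0 to 25.9 ± 0.57 TPM (-0.61, adjusted p = 1.7e-06). Stat92E, the transcription factor, fell from 112 ± 14 to 85.6 ± 2.4 TPM (-0.38, limma adjusted p = 0.00069). The other cytokine genes were scarce: upd1 stood at 0.137 to 0.339 TPM in wild type, 0.495 to 0.540 TPM in Chd1-deficient, then 0.497 to 0.590 TPM in elav>Chd1, and upd2 did not exceed 0.280 TPM. For upd1 the libraries of both other groups lay above wild type and overlapped each other. Of the 8 ovary markers 6 were lower and 2 higher in the same comparison (median -0.59); their part in the lower pathway genes was not tested.

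The largest rises in that list belonged to genes of immunity and to chinmo. Diedel, which encodes a secreted immune modulator, rose from 0.832 ± 0.305 to 6.35 ± 0.59 TPM, a log2 fold change of 2.38 (limma adjusted p = 5e-06), and chinmo, a BTB zinc-finger factor, from 1.21 ± 0.12 to 4.66 ± 0.34 TPM (1.60, adjusted p = 7.7e-08). Tep2, a thioester-containing protein of immunity, rose from 8.20 ± 0.30 to 19.8 ± 0.3 TPM, and Listericin, an antibacterial peptide, from 27.9 ± 2.1 to 55.2 ± 5.4 TPM. Against elav>Chd1 the same 4 genes had the largest called changes, with log2 fold changes of 2.81, 0.98, 0.89 and 0.55 for Diedel, chinmo, Tep2 and Listericin. That comparison had 6 of 27 genes higher and 13 lower, where 68.4% of all genes were called. In it dome (-0.28, limma adjusted p = 0.0009) and hop (-0.27, limma adjusted p = 0.0014) were lower in Chd1-deficient. Stat92E did not differ beyond its error (log2 fold change -0.00, SE 0.08, limma adjusted p = 0.97).

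In elav>Chd1 against wild type, 7 of the 27 genes were higher and 19 lower (median -0.24), beside 30.6% and 47.3% of all genes (median -0.15). The largest called changes were rises of slbo, a C/EBP factor of migrating follicle cells (1.01), et, a receptor related to dome that lowers signalling (0.90), vir-1, a gene induced by viruses (0.86), and chinmo (0.62), with limma adjusted p of 5.5e-05, 9.8e-05, 2.8e-08 and 0.00016. vir-1 stood at 89.65 ± 2.36 TPM in wild type, 145 ± 5 TPM in Chd1-deficient, then 163 ± 3 TPM in elav>Chd1. Diedel was not called (0.832 ± 0.305 against 0.528 ± 0.407 TPM). As in Chd1-deficient, dome (-0.29), hop (-0.33) and Stat92E (-0.38) were lower than in wild type, with limma adjusted p of 0.00067, 0.00029 and 0.0011. Thus vir-1, et and slbo were higher in elav>Chd1 than in wild type while TotA, TotC, TotM and TotX were lower.

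**Figure D4:**
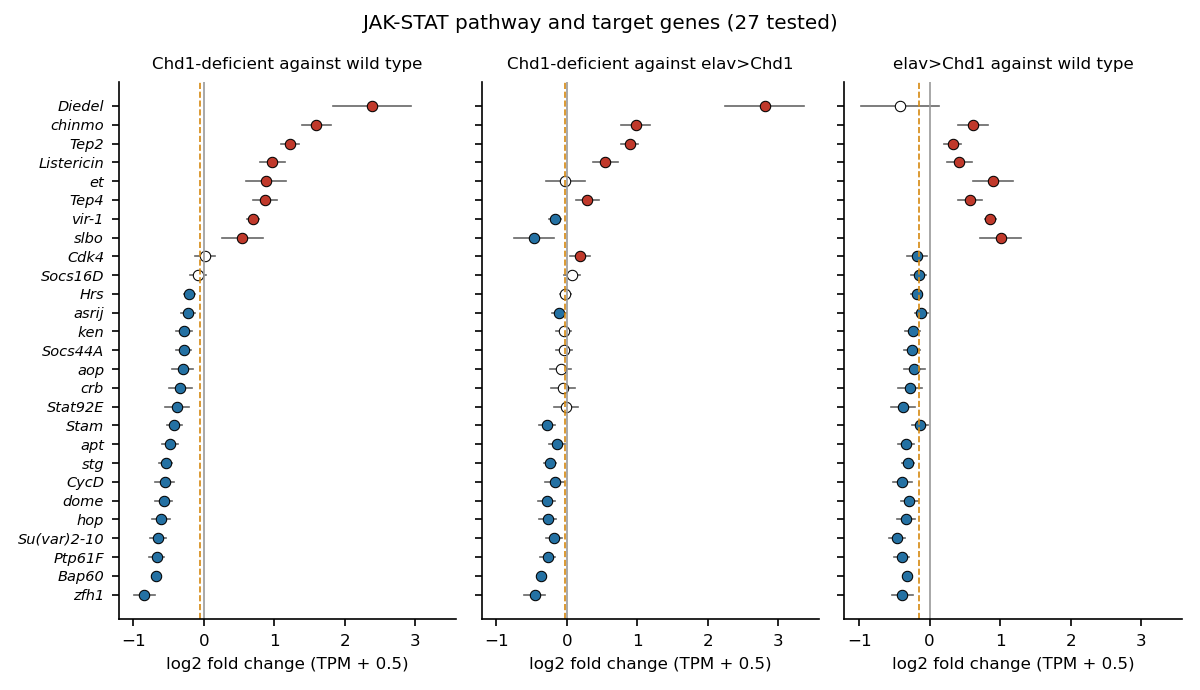
Fold changes of the 27 tested JAK-STAT pathway and target genes on the log2(TPM + 0.5) scale (horizontal axis) with 95% intervals; red and blue points were called higher and lower by limma, white points were not called, and the dashed line is the median of all genes. Against wild type, Diedel and chinmo had the largest rises in Chd1-deficient, and dome, hop and Stat92E lay below 0 in Chd1-deficient and in elav>Chd1.

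Known stress regulators of Turandot genes had 5 of 20 genes higher and 12 lower in Chd1-deficient than in wild type (median -0.24), a called count near the 88.9% of all genes. Rel, the NF-kappaB factor of the Imd pathway, was not called (27.1 ± 1.0 against 28.9 ± 0.98 TPM, limma adjusted p = 0.1). Mekk1, a stress kinase known to act on Turandot genes, fell in log2 terms by 0.60 (limma adjusted p = 1e-06), Hsf, the heat shock factor, by 0.83 (adjusted p = 3.3e-07) and the kinase gene p38a by 0.84 (adjusted p = 8.3e-08). kay, the fly Fos, rose from 15.6 ± 1.4 to 32.3 ± 0.96 TPM (1.02, limma adjusted p = 1.1e-07).

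Against elav>Chd1, 4 of the 20 stress regulators were higher in Chd1-deficient and 9 lower, a count near the 68.4% called over all genes. Rel (-0.14), Mekk1 (-0.29), Hsf (-0.37) and p38a (-0.63) were lower while egr, a TNF ligand, was higher (0.47). From wild type to elav>Chd1, 4 rose and 11 fell, again near the share of all genes called, 77.9%. Here Rel rose by 0.23 (limma adjusted p = 0.0016), kay by 0.84 and the stress factor gene Atf3 by 0.77, while Mekk1 fell by 0.30 and Hsf by 0.46. Rel and kay were above wild type in elav>Chd1, where the 4 abundant Turandot genes were lowest. kay was higher still in Chd1-deficient, at 32.3 against 28.2 TPM in elav>Chd1. The part of these regulators in the Turandot values was not tested.

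Genes with the profile most like that of a member over the 9 libraries were found by the root mean square distance between log2(TPM + 0.5) values, each centred on its mean, among all tested genes. Nearest to TotM were Acp53C14b, an accessory gland protein gene (distance 0.14, against a root mean square spread of 1.65 for TotM itself), Ebp, an ejaculatory bulb protein gene (0.17), and CG32148 (0.19). Acp53C14b stood at 6.23 to 8.43 TPM in wild type, 36.7 to 41.7 TPM in Chd1-deficient, then 1.38 to 2.88 TPM in elav>Chd1. Per 100 TPM of the summed male reproductive markers, TotM amounted to 27.1 to 31.4 TPM in wild type, 25.5 to 29.1 TPM in Chd1-deficient, then 27.5 to 49.4 TPM in elav>Chd1, and the 3 groups overlapped. All 7 male markers were detected in every group. Against wild type, all 7 were called higher in Chd1-deficient and lower in elav>Chd1. Their rises in Chd1-deficient were unlike in size. In log2 terms Mst84Da, Mst87F and dj rose by 3.70, 3.42 and 3.49. Acp26Aa, SP, Mst57Da and Acp62F rose by 1.79, 2.22, 2.06 and 1.87. TotM, at 2.39, lay between, so the overlap above holds for the pooled sum. Ratios to either part of the list were not computed, and these genes were named after their values were seen. The part of male tissue in the TotM values was not tested.

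TotA had the group order of the male list, but its changes differed in size from those of the list. Per 100 TPM of male markers it amounted to 243 to 290 TPM in wild type, 44.9 to 53.6 in Chd1-deficient and 313 to 423 in elav>Chd1. Per 100 TPM of the 7 fat body markers, TotA amounted to 18.8 to 19.6 TPM in wild type, 19.4 to 21.2 TPM in Chd1-deficient, then 6.45 to 7.40 TPM in elav>Chd1. The former groups overlapped on that measure, and elav>Chd1 lay below both. The fat body list itself summed to 809 to 921, 904 to 949 and 885 to 920 TPM in wild type, Chd1-deficient and elav>Chd1, with its groups overlapping. Most of that sum was Desat1, at 526 to 620, 461 to 505 and 558 to 592 TPM. The sum and the ratios to it thus mainly follow that gene, which was named after its values were seen. Against wild type, 5 of the 7 list genes were called higher in Chd1-deficient and 2 lower, Desat1 among the latter. Ratios without Desat1 were not computed. Among the list's members, Lsp2, a larval serum storage protein gene, was lowest in elav>Chd1. It stood at 100.3 to 106, 227 to 236 and 61.2 to 63.7 TPM in wild type, Chd1-deficient and elav>Chd1, the order of TotA, TotM and TotX. Lsp2 was chosen after its values were seen. The list was mixed in elav>Chd1 against wild type, with 3 genes higher and 2 lower: FASN1, a fatty acid synthase gene, went up from 40.9 to 110.2 TPM (by 1.42 in log2 terms, limma adjusted p = 1.1e-09), AkhR, the adipokinetic hormone receptor gene, from 4.12 to 9.47 TPM, and Lpin also rose, while Lsp2 and the lipase gene bmm fell.

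Nearest to Socs36E were dpr9, an immunoglobulin-domain gene of neurons (distance 0.041, against a spread of 0.83 for Socs36E itself), Eaat2, an amino acid transporter gene (0.049), and tn, a TRIM protein gene known from muscle (0.050). dpr9 stood at 0.515 to 0.612 TPM in wild type, 3.68 to 3.84 TPM in Chd1-deficient, then 1.61 to 1.77 TPM in elav>Chd1. The 6 neuron markers summed to 54.8 to 60.9, 169.8 to 178 and 80.1 to 83.2 TPM in the same order. Per 100 TPM of these, Socs36E amounted to 2.68 to 2.94 TPM in wild type, 4.66 to 4.78 TPM in Chd1-deficient, then 4.50 to 4.80 TPM in elav>Chd1, so that the Chd1-deficient and elav>Chd1 groups overlapped and wild type lay below. That order rests on Syx1A, a syntaxin gene at 27.8 to 31.3, 28.4 to 29.1 and 26.2 to 26.6 TPM. Per 100 TPM of the other 5 markers, Socs36E amounted to 5.56 to 5.97 TPM in wild type and 5.57 to 5.70 TPM in Chd1-deficient, which overlapped, and to 6.62 to 7.13 TPM in elav>Chd1, above both; this was added after the values were seen. The part of neuronal RNA in the Socs36E values was not tested.

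Nearest to upd3, on a scale compressed by its low level, were Amy-d, an amylase gene of the gut (0.063), CG10226 (0.079) and LKRSDH, an enzyme of lysine breakdown (0.082), against a spread of 0.33 for upd3. The 9 gut markers summed to 2030 to 2375 TPM in wild type, 3906 to 4068 TPM in Chd1-deficient, then 3558 to 3594 TPM in elav>Chd1. Among 9 hemocyte markers, Hml, NimC1 and eater, which define these cells, stood below 1 TPM in every library, and He was at 0 in at least 1 library of each group; the list summed to 138 to 149, 106 to 115 and 125 to 133 TPM, most of it crq (123.7 to 134, 85.6 to 93.2 and 98.8 to 107 TPM), which fell. Most other hemocyte markers stood higher in Chd1-deficient than in wild type, as upd3 did: Pxn rose from 1.21 to 5.06 TPM, PPO2 from 1.08 to 3.73 TPM and PPO1 from 0.498 to 0.878 TPM, and the untested Hml, NimC1 and eater had means of 0.135 against 0.407, 0.112 against 0.435 and 0.0331 against 0.194 TPM (wild type first), while srp fell. In elav>Chd1, Pxn stood at 3.80 TPM, PPO2 at 3.81 TPM and Hml at 0.651 TPM. Their part in the upd3 values was not tested.

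**Figure D5:**
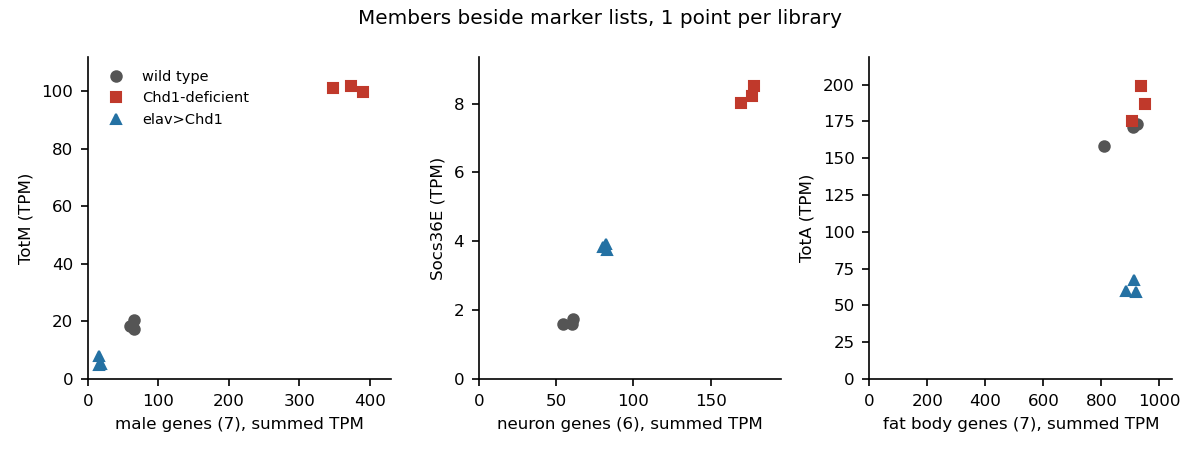
Level of TotM, Socs36E and TotA (vertical axes, TPM) against the summed TPM of the male reproductive, neuron and fat body marker lists (horizontal axes), 1 point per library and linear axes from 0. TotM moved with the male list and Socs36E rose with the neuron list. TotA fell to 59.3 to 67.5 TPM in elav>Chd1 at fat body sums (885 to 920 TPM) within the range of the other groups. Most of the fat body sum was Desat1.

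After TotM, Socs36E and upd3, the same search was added for the other detected Turandot genes once their values had been seen. TotC was among the 3 genes nearest to TotA (distance 0.24), behind corolla (0.22) and CG43202 (0.24). Nearest to TotX were CG8093 (0.13), CG6910 (0.14) and LManIII (0.15), and nearest to TotC were CG13029 (0.14), Rpt3R (0.15) and CG13949 (0.17). No Turandot gene was among the 3 nearest to TotM, TotX, TotC or TotB.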

How the data were processed

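Per the file headers, each library's file holds 1 column of TPM made by the authors; Salmon and DESeq2 are listed, with neither role nor version, per the submitters' processing notes, which state no genome build. The authors' deposited tables for Chd1-deficient against each other group give, per gene, a mean normalized count (a signal averaged over libraries), a log2 fold change with its error, a test score, and a p-value before and after adjustment; they hold genes whose log2 fold change is about 1 or more in size.

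Symbols were matched to the Ensembl 115 annotation (dm6 coordinates) and RefSeq synonyms; all 30 JAK-STAT and 20 stress genes were found. On log2(TPM + 0.5), 1 mean per genotype was fitted with limma-trend over all 9 libraries. Benjamini-Hochberg adjustment covered the 11094 genes reaching 1 TPM in 3 or more libraries, at a threshold of 0.05. The depth is unknown, so no counting intervals were given. Lists were described by counts and medians, with no set test. Genes named were the 9 members, fixed pathway genes, the called list genes with the largest changes (4 and 3 per list) and the 3 nearest profiles; others are marked. Members and lists were chosen with earlier results of these data known, and ratios of members to marker sums were added after their values were seen. Alternatives changed the filter, pseudocount, scaling, samples, replicate block, prior and call rule. The procedure was tried on simulated TPM, of which no outcome is given or relied on here. Tools were R 4.3.3, limma 3.58.1, Python 3.11.15, pandas 2.3.3 and matplotlib 3.10.9. No nucleotide or protein sequence was used here.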

Additional observations from a re-analysis of the deposited data

How the results depend on the processing

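No member's fold change reversed under any alternative. Among the tested members' values under alternatives, those of TotB included, 300 kept direction and side of the threshold and 9 fell below it. Of these 9, 4 concern the rule of a log2 change beyond 1 in size (TotA, TotC and TotX against wild type in Chd1-deficient, TotX in elav>Chd1), which by construction removes small changes, and 5 the left-out libraries named for TotA and TotC. Under that rule 3 members (TotB among them) and 3 pathway genes were called for Chd1-deficient against wild type, 1 pathway gene in each other comparison, and 3231, 1921 and 937 of all genes (in the order of comparisons above: deficient to wild type, deficient to elav>Chd1, elav>Chd1 to wild type). With at least 10 TPM in 3 libraries, which leaves 7472 genes and 4 members, 4994 genes were called for Chd1-deficient against elav>Chd1, where 7583 were called otherwise. With TotB left out, added after the values were seen, 5 members were called in each comparison. Leaving out each library gave 4 to 6, 5 to 6 and 5 members called; without any 1 Chd1-deficient library TotB failed the filter. Without a filter, upd3 was called in all 3 comparisons (log2 fold changes 0.77, 0.47 and 0.31; limma adjusted p = 3e-05, 0.0016 and 0.015); the pseudocount compresses these values at such levels, where the ratio of mean TPM was 8.30, 2.42 and 3.43. Whether replicate numbers pair the libraries was not settled. Deviations of same-numbered libraries correlated at -0.16 to 0.11 (median 0.03), and those of other pairs at -0.15 to 0.18 (median -0.01). Of 9 libraries, 5 correlated best with their own number. With replicate number as a block, 6, 6 and 5 members were called, and no call of a member changed. The first 2 counts include TotB, which entered the fit only through its Chd1-deficient libraries. Of the 11094 genes, 9821, 7421 and 8527 were called with the block, against 9859, 7583 and 8642 without it. Median-ratio scaling left all tested member and JAK-STAT directions as they were, and turned 2 stress genes that were not called (Atf3 for Chd1-deficient against elav>Chd1, puc for elav>Chd1 against wild type). Depth is unknown, which limits TotB, TotZ and upd3 most.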
